A study of Homo sapiens with 6 samples.

Results

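The β-catenin destruction complex and the Dishevelled proteins were followed in RKO cells, a human colorectal cancer line, through 9 genes: APC, AXIN1, GSK3A, GSK3B, CSNK1A1, BTRC, DVL1, DVL2 and DVL3. They were taken by symbol from the deposited table of 63563 genes, in which each has 1 row; the cell of DVL1 also names the microRNA MIR6808. OVER43 cells (3 libraries) were stably transfected with the vector pCDNA3.1 carrying the cDNA of Cx43, the gap junction protein encoded by GJA1. EV cells (3 libraries) are the empty vector control, with the genotype given as WT. All were grown in DMEM with serum and antibiotics. Whether a stable line is 1 clone or a pool is not given in the sources used here, nor whether libraries come from separate cultures, so the spread that p-values measure may be technical.

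As background, the destruction complex keeps cytoplasmic β-catenin low. AXIN1 and APC are its scaffolds, casein kinase 1α (CSNK1A1) and then GSK3 phosphorylate β-catenin, and the F-box protein encoded by BTRC hands the phosphorylated protein to an SCF ubiquitin ligase for degradation. Dishevelled proteins are recruited to activated Frizzled receptors, polymerise and draw AXIN1 to the membrane, which inhibits the complex. RKO is commonly described as carrying intact APC and CTNNB1, unlike most colorectal cancers. Much of this step is regulated on proteins, which RNA does not show.

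Values are FPKM (fragments per kilobase of transcript and per M fragments) as the authors' Cuffdiff run scaled them. Fold changes are differences of mean log2(FPKM + 1), OVER43 minus EV, which understates changes of weakly expressed genes. A gene was called where its limma adjusted p over all 12205 tested genes was under 0.05. GJA1, the check of the labels, averaged 24.7 ± 1.44 FPKM in OVER43, against 0.348 ± 0.0469 in EV (SD, n = 3 each). Steps between low values placed OVER43 libraries at about 45.6 to 48.4 M fragments and EV libraries at about 41.8 to 51.2 M. These are estimates on the scale of the deposited FPKM. They give the 9 genes about 1382 to 12156 fragments each per library. Of 9 colon epithelial markers 4 reached 1 FPKM, with a summed level over the list of 198.3 to 203.2 FPKM in OVER43 and 155.9 to 162.8 in EV. EPCAM and KRT18 were higher and KRT8 and CDX2 lower in OVER43 by their means, CDH1, VIL1, LGALS4 and CDH17 stayed below 1 FPKM, and KRT20 was listed at 0. The part of these markers in the results was not tested. None of 6 fibroblast markers (sum 0.185 to 0.379 FPKM in OVER43 and 0.338 to 0.895 in EV) or 3 endothelial markers (sum 0.252 to 0.388 FPKM in OVER43 and 0.0862 to 0.134 in EV) reached 1 FPKM, and COL3A1 was listed at 0. Of 4 leukocyte markers CD68 alone did (sum 368.3 to 386.6 FPKM in OVER43 and 404.7 to 420.9 in EV), while PTPRC and CD3E were listed at 0. In bulk RNA, less transcript per cell and fewer cells with the transcript cannot be told apart.

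DVL2 and GSK3B were higher in OVER43, by 35.9% and 25.4% of the EV mean, and both calls held under the 4 scalings of the libraries that were run. DVL3 and GSK3A were called higher as well, by 14.2% and 12.1%, but not under each scaling. APC, AXIN1, CSNK1A1, BTRC and DVL1 were not called. All 9 genes passed the expression filter; 4 were called higher and 0 lower, which is 44.4% of the 9 (limma; at an unadjusted p under 0.05, 6 higher and 0 lower). Over all tested genes 45.9% were called, 28.4% higher and 17.5% lower, so the share called among the 9 was near the background. Their median log2 fold change was 0.14, beside 0.053 over all tested genes, and 7 of the 9 lay above that of all genes. A filter of 5 FPKM, which all 9 passed, left 9249 genes with a median of 0.082. Of those, 3278 were called higher and 1592 lower. In 6 of the 9 genes the groups did not overlap, each time with OVER43 above EV. Over all tested genes 56.3% showed no overlap and 33.9% showed it with OVER43 above.

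**Figure D1:**
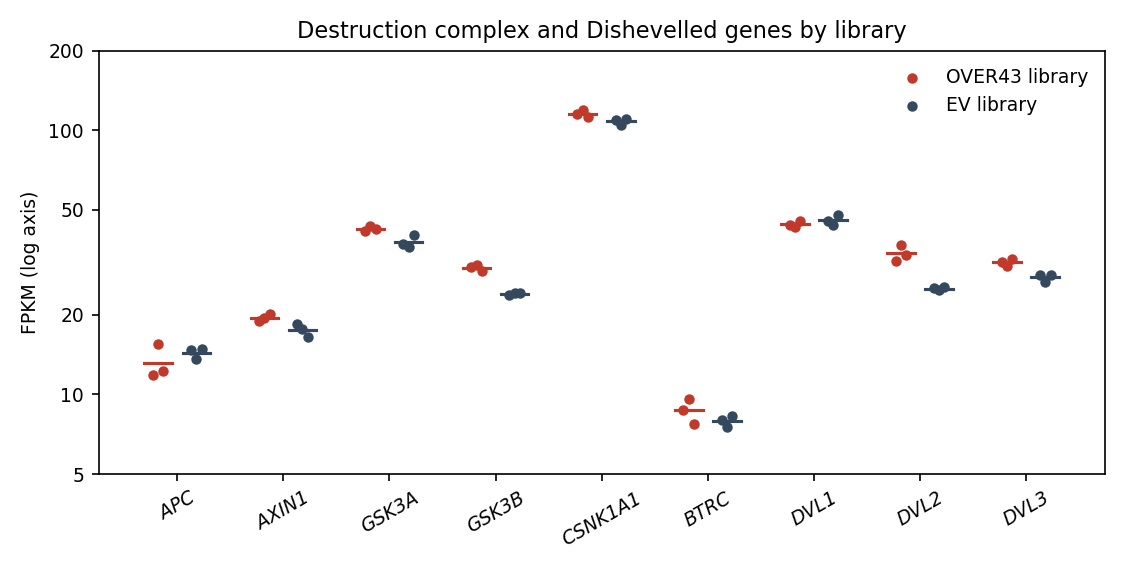
FPKM of the 9 genes on a log axis, 1 point per library with the group mean as a line, OVER43 left of EV. The points of the groups do not overlap for DVL2, GSK3B, DVL3, GSK3A, AXIN1 and CSNK1A1, and those of DVL1, BTRC and APC overlap. CSNK1A1 lies above the other genes at 105.0 to 119.0 FPKM.

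The genes kept nearly the same order of levels in both groups. CSNK1A1 was the highest, averaging 115.6 ± 3.27 FPKM in OVER43 libraries, against 108.4 ± 2.97 in EV libraries (SD, n = 3 each). AXIN1, APC and BTRC were the 3 lowest, in that order, with no overlap of library ranges between neighbours. DVL1 and GSK3A followed CSNK1A1 in both groups; their ranges overlapped in OVER43 but not in EV. DVL2, DVL3 and GSK3B came next in OVER43, with overlapping ranges between neighbours. In EV the order was DVL3, DVL2 and GSK3B, without overlap. Among all tested genes the mean level of BTRC stood at percentile 37.3 and that of CSNK1A1 at percentile 94.3.

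Of the scaffolds, APC, which binds β-catenin and axin, read 11.8, 15.5 and 12.2 FPKM in the OVER43 libraries, against 14.7, 13.6 and 14.9 in the EV libraries. OVER43 library 1 was the highest of all 6, so the groups overlapped. The log2 fold change was -0.13 (95% interval -0.36 to 0.10) and the limma adjusted p was 0.331. Without OVER43 library 1 it was -0.24 and APC was called lower (limma adjusted p = 0.0323), so the absence of a call depends on that library. APC was not called on leaving out any other library (limma adjusted p from 0.289 to 0.694) or under the other scalings (0.0722 to 0.245). AXIN1, on which the complex assembles, read 18.9, 19.5 and 20.1 FPKM in OVER43, against 18.6, 17.7 and 16.5 in EV. The groups did not overlap, but the log2 fold change of 0.14 missed the threshold (unadjusted 95% interval 0.0075 to 0.28, limma adjusted p = 0.0803). That fold change was 0.12 under TMM, 0.076 under quantile scaling and 0.0080 with equal sums. APC (ENSG00000134982) lies on chromosome 5 at 112043195 to 112258236 and AXIN1 (ENSG00000103126) on chromosome 16 at 337440 to 402673. These are hg19 positions of the deposited loci, which can join overlapping genes.

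Among the kinases, GSK3B read 30.4, 30.8 and 29.3 FPKM in OVER43, against 23.9, 24.2 and 24.1 in EV. Each OVER43 library was above each EV library, with a spread in either group that was small beside the gap. The log2 fold change was 0.31 ± 0.044 (SE) with a limma adjusted p of 0.000737. Its paralogue GSK3A read 41.4, 43.4 and 42.4 FPKM in OVER43, against 37.1, 36.2 and 40.2 in EV, without overlap but with EV library 2 close to the OVER43 values. Its log2 fold change was 0.16 ± 0.050 (SE) with a limma adjusted p of 0.0299. That call ended under TMM (limma adjusted p = 0.0683), quantile (0.408) and equal-sum scaling (0.776), with no filter (0.115), and on leaving out any library but EV library 2 (0.0504 to 0.0988). CSNK1A1, the priming kinase, read 115.4, 119.0 and 112.5 FPKM in OVER43, against 109.8, 105.0 and 110.5 in EV. The groups did not overlap, and the log2 fold change of 0.092 was not called (unadjusted 95% interval 0.0082 to 0.18, limma adjusted p = 0.0706). It turned negative under quantile scaling (-0.10) and equal sums (-0.051). GSK3A (ENSG00000105723) lies on chromosome 19 at 42734338 to 42759309, GSK3B (ENSG00000082701) on chromosome 3 at 119540170 to 119813264 and CSNK1A1 (ENSG00000113712) on chromosome 5 at 148871760 to 148931007.

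BTRC, the substrate receptor, was the least expressed and read 8.73, 9.65 and 7.76 FPKM in OVER43, against 8.004, 7.56 and 8.32 in EV. The OVER43 libraries included the highest and the second lowest of the 6 values, so the groups overlapped. The log2 fold change of 0.11 was not called (95% interval -0.087 to 0.31, limma adjusted p = 0.322) and was -0.015 with equal sums. BTRC (ENSG00000166167) lies on chromosome 10 at 103113820 to 103317078. FBXW11, its paralogue, which also recognises β-catenin, averaged 31.1 ± 1.36 FPKM in OVER43, against 30.7 ± 0.767 in EV (SD, n = 3 each), and was thus above BTRC per length. It was not called (limma adjusted p = 0.805), and the sign of its small difference (0.016) was negative under the other scalings.

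Of the Dishevelled genes, DVL2 read 32.0, 36.8 and 33.9 FPKM in OVER43, against 25.2, 24.8 and 25.5 in EV. All OVER43 libraries were higher, library 1 the most, and they varied more than the EV libraries. The log2 fold change of 0.43 ± 0.057 (SE) was the largest of the 9 in size, with a limma adjusted p of 0.000608, and the call held without each library in turn (0.00108 to 0.00327). DVL3 read 31.6, 30.7 and 32.7 FPKM in OVER43, against 28.4, 26.6 and 28.3 in EV, without overlap. Its log2 fold change was 0.18 ± 0.049 (SE) with a limma adjusted p of 0.0149. It was called under TMM (limma adjusted p = 0.0314) but not under quantile (0.143) or equal-sum scaling (0.471), with no filter (0.0523) or without EV library 1 (0.0528). DVL1, the most expressed of the family, read 43.8, 43.1 and 45.5 FPKM in OVER43, against 45.3, 43.7 and 47.8 in EV. The groups overlapped, and the log2 fold change was -0.046 (95% interval -0.15 to 0.062, limma adjusted p = 0.449). DVL1 was called lower under quantile scaling (-0.16, limma adjusted p = 0.0249) and equal sums (-0.19, 0.0137).

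**Figure D2:**
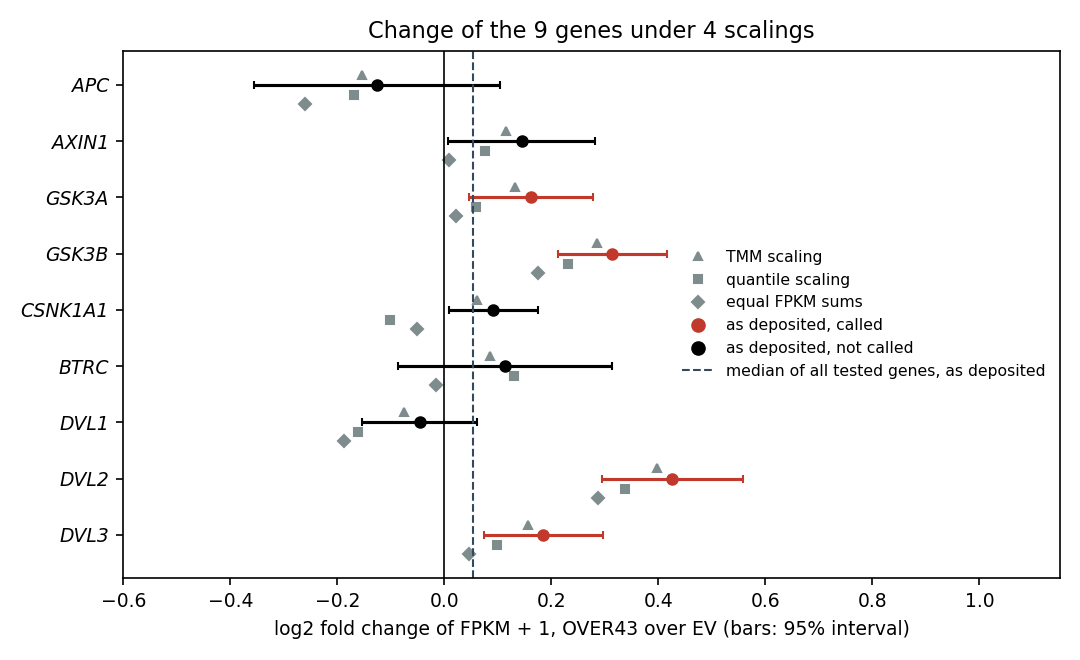
Log2 fold change of each gene, OVER43 over EV, with circles and 95% intervals for the deposited scaling and grey symbols for 3 other scalings; the dashed line is the median of all tested genes, 0.053. DVL2, GSK3B, DVL3, GSK3A and AXIN1 stay right of 0 under each scaling, and the symbols of CSNK1A1 and BTRC fall on both sides of 0.

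The choice of scaling moved the median log2 fold change of all tested genes to 0.026 (TMM), 0.014 (quantile) and -0.076 (equal FPKM sums), where it was 0.053 as deposited. Relative to the median as deposited, DVL2 stood at 0.37, GSK3B at 0.26, DVL3 at 0.13, GSK3A at 0.11, DVL1 at -0.099 and APC at -0.18. With TMM, 3 of the 9 were called higher and 0 lower, where 45.1% of all genes were called, 25.6% higher and 19.5% lower. With quantile scaling 2 were called higher and 1 lower (40.9% of all genes, 20.8% and 20.1%). With equal sums the counts were 2 and 1 (44.5%, 15.3% and 29.2%). DVL2 and GSK3B were the genes called higher under all 4.

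A share within a library does not depend on a common scale factor. DVL2 made up 29.8%, 33.3% and 30.2% of the summed FPKM of the 3 Dishevelled genes in the OVER43 libraries, against 25.5%, 26.1% and 25.1% in the EV libraries. The OVER43 shares were all higher, by 5.54 percentage points on average (exact two-sided permutation test, p = 0.1, the smallest possible with 3 against 3). The DVL1 share averaged 40.1% ± 0.997 in OVER43, against 46.3% ± 0.684 in EV, also without overlap (SD, n = 3 each, exact permutation p = 0.1). The DVL3 share was 28.8% ± 0.905 in OVER43, against 28.2% ± 0.477 in EV, and overlapped (exact permutation p = 0.4). GSK3B made up 42.3%, 41.5% and 40.9% of the summed GSK3A and GSK3B FPKM in OVER43, against 39.1%, 40.1% and 37.5% in EV. These shares did not overlap either, with a difference of 2.67 percentage points (exact permutation p = 0.1).

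**Figure D3:**
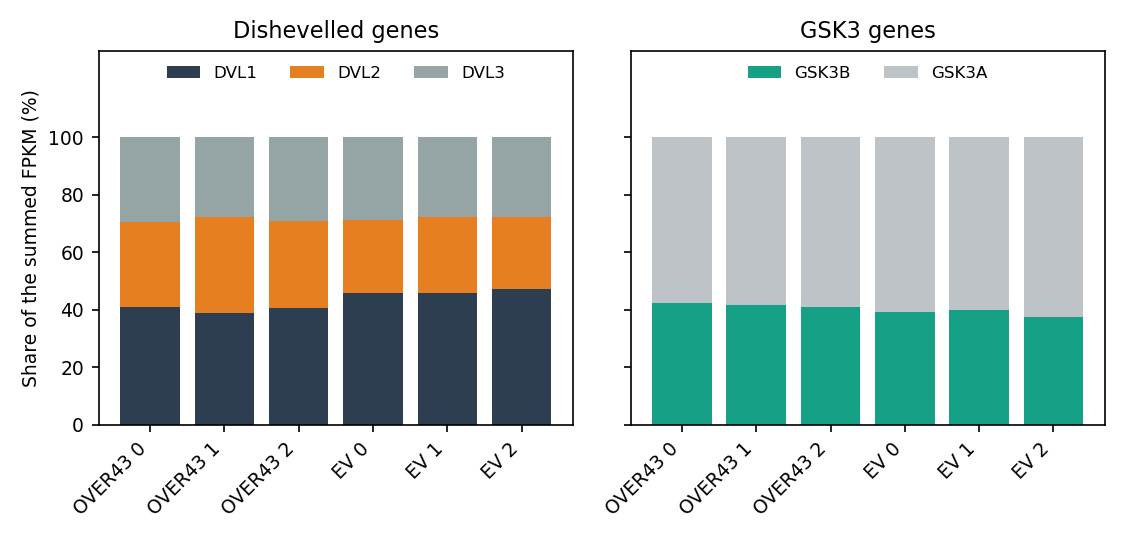
Share of each gene in the summed FPKM of its family, in percent, by library, OVER43 left of EV. The DVL2 segment is taller in the OVER43 libraries (29.8% to 33.3%) than in the EV libraries (25.1% to 26.1%), and the GSK3B segment is slightly taller in OVER43.

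Upstream sequences of the Dishevelled genes are shown because these paralogues gave the largest change of the 9 (DVL2) and no call (DVL1). Each is the 250 bases before the RefSeq start site, 5′ to 3′ along the gene, in build GRCh38.p14, which differs from the hg19 of the deposited loci. Capitals mark an E-box (CACGTG) or a cyclic AMP response element (TGACGTCA), searched on both strands. DVL1 is shown at chr1:1349419-1349668 (minus strand), DVL2 at chr17:7234518-7234767 (minus strand) and DVL3 at chr3:184155127-184155376 (plus strand).
DVL1: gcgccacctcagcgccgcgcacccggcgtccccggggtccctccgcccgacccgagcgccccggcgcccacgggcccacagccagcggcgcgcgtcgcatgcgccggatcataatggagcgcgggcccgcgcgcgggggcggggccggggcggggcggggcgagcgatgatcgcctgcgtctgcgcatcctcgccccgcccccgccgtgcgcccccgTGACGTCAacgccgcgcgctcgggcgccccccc
DVL2: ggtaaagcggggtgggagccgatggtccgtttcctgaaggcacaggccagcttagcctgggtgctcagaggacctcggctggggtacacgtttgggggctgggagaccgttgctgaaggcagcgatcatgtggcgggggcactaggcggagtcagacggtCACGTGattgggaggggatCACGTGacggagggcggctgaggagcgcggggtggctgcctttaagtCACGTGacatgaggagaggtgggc
DVL3: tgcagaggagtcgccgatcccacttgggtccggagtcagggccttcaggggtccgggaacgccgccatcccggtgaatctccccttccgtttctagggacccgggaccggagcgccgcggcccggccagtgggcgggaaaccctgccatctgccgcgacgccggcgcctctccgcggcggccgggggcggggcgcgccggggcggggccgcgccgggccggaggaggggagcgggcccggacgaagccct

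The DVL2 window holds 3 E-boxes, which begin 90, 71 and 24 bases before the start site, and the DVL1 and DVL3 windows hold 0. Of 34943 RefSeq windows of this length, 6.32% hold at least 1 E-box, and 28 (0.0801%) hold 3 or more. The DVL1 window holds 1 cyclic AMP response element, 33 bases before the start, as 1.63% of windows do at least once. Neither motif is in the windows of AXIN1, GSK3A, GSK3B or CSNK1A1, and 1 of the 2 APC windows holds an E-box. The TCF/LEF motif CTTTGAT, present in 2.27% of all windows on either strand, is in none of the 10 windows of the 8 genes matched. CCAAT boxes (CCAAT) and GC boxes (GGGCGG) were searched as well, and 32.04% and 42.55% of all windows hold them. The DVL2 window holds 1 of each, and the DVL1 and DVL3 windows hold 5 and 3 GC boxes. The E-boxes of DVL2 are thus picked from a wider search. A match describes letters in a window and not a bound site.

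At the transcript level the 9 genes have 70 deposited entries, not counting 1 per gene that spans the whole gene. Of the 70, 33 passed the filter, 6 were called higher and 1 lower. Over all 31220 tested transcripts 14.6% were called, 9.77% higher and 4.82% lower. Transcript values divide shared reads by estimation. DVL2-201, which codes for 736 residues, read 22.6, 21.3 and 22.3 FPKM in OVER43, against 17.3, 17.6 and 16.9 in EV. All OVER43 libraries were higher, with a log2 fold change of 0.33 ± 0.045 (SE) and a limma adjusted p over transcripts of 0.00714, and the call held without each library in turn. That call ended with a replicate block by column number (limma adjusted p = 0.0518). The shorter coding entries DVL2-210 and DVL2-208 averaged 6.82 ± 1.90 and 3.01 ± 1.46 FPKM in OVER43, against 4.10 ± 0.818 and 1.56 ± 0.874 in EV (SD, n = 3 each), and overlapped. Names, types and residue numbers are those of GENCODE 29, matched by ID without version.

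GSK3B has a pair of main coding transcripts, and both were called higher. GSK3B-202, of 433 residues, read 12.6, 13.5 and 13.6 FPKM in OVER43, against 9.44, 10.3 and 9.47 in EV, with a log2 fold change of 0.41 ± 0.063 (SE) and a limma adjusted p of 0.0114. GSK3B-201, of 420 residues, read 15.1, 15.7 and 14.4 FPKM in OVER43, against 12.4, 12.4 and 12.9 in EV, with a log2 fold change of 0.24 ± 0.054 (SE) and a limma adjusted p of 0.0371. The groups overlapped in neither. The call of GSK3B-201 ended on leaving out any 1 library (limma adjusted p from 0.0592 to 0.112), while that of GSK3B-202 held each time. The GSK3B-202 call ended with no filter on low values (limma adjusted p = 0.0552) and with a replicate block by column number (0.0513). GSK3A-201 held 91.7% ± 4.23 of the GSK3A transcript FPKM in OVER43 and 91.9% ± 3.91 in EV. It was called higher (log2 fold change 0.16, limma adjusted p = 0.0458), a call that ended under TMM (0.0527) and on leaving out any 1 library (0.0673 to 0.128).

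In DVL3, no transcript was called although the gene was. DVL3-201, of 716 residues, read 10.3, 10.6 and 9.70 FPKM in OVER43, against 10.1, 9.73 and 10.4 in EV, and the groups overlapped (log2 fold change 0.016, 95% interval -0.14 to 0.17). The retained intron entry DVL3-207 read 11.7, 9.20 and 12.3 FPKM in OVER43, against 7.67, 8.24 and 8.08 in EV. Those groups did not overlap, and the log2 fold change of 0.42 missed the threshold (limma adjusted p = 0.0646); without OVER43 library 1 it was called (0.0225). The second coding entry, DVL3-203, averaged 9.60 ± 0.922 FPKM in OVER43, against 8.53 ± 0.534 in EV (SD, n = 3 each). In DVL1, the coding transcripts DVL1-201 and DVL1-202 averaged 30.8 ± 1.22 and 12.6 ± 0.742 FPKM in OVER43, against 31.6 ± 1.58 and 12.4 ± 0.686 in EV, and neither was called.

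**Figure D4:**
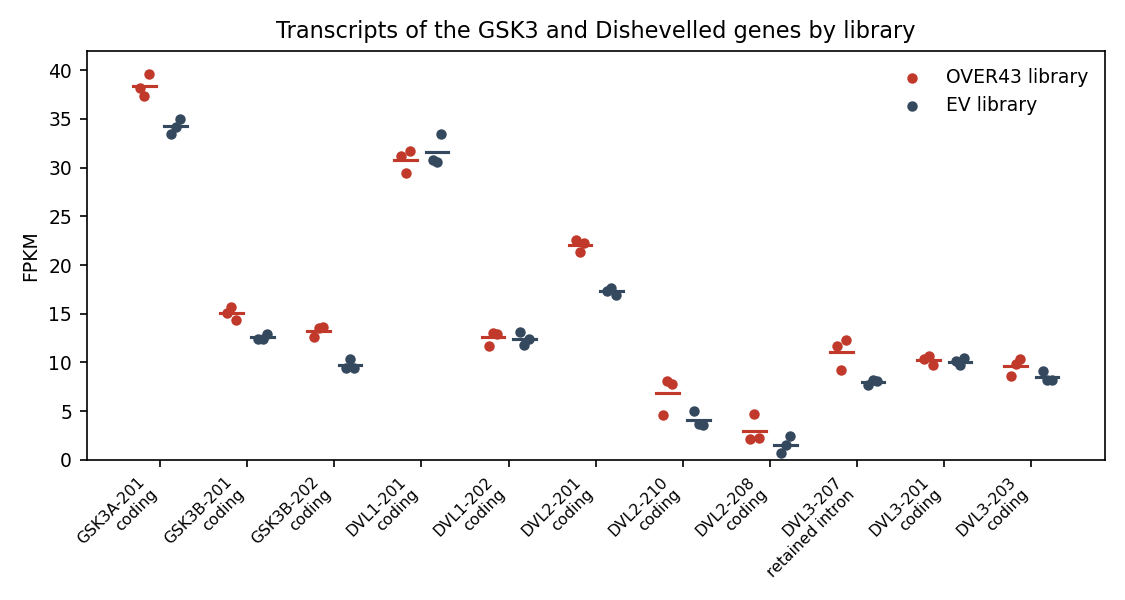
FPKM of the more abundant transcripts of the GSK3 and Dishevelled genes, 1 point per library with the group mean as a line, OVER43 left of EV. The groups lie apart for GSK3A-201, GSK3B-201, GSK3B-202, DVL2-201 and DVL3-207 and overlap for DVL1-201, DVL1-202, DVL2-208, DVL2-210, DVL3-201 and DVL3-203.

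Of the CSNK1A1 entries 2 were called higher and 1 lower. CSNK1A1-202, of 337 residues and the most abundant, read 59.5, 61.0 and 60.1 FPKM in OVER43, against 51, 55.3 and 53.0 in EV, and was called higher (log2 fold change 0.18, limma adjusted p = 0.0316). CSNK1A1-210, a coding entry of 134 residues, was also called higher, averaging 21.2 ± 3.36 FPKM in OVER43, against 14.9 ± 0.253 in EV (SD, n = 3 each). CSNK1A1-206, of 89 residues, was called lower, averaging 0.553 ± 0.213 FPKM in OVER43, against 2.07 ± 0.732 in EV. It passed the filter through the EV libraries alone, and its call ended with no filter (limma adjusted p = 0.191) and with a pseudocount of 0.1 (log2 fold change -1.71 in place of -0.96, limma adjusted p = 0.0522). These 3 calls ended on leaving out 1 library in 5, 4 and 5 of 6 cases. The entry that spans the whole CSNK1A1 gene with its introns read 0.274, 0.276 and 0.238 FPKM in OVER43, against 0.337, 0.332 and 0.337 in EV, lower without overlap and below the filter; the same entries of the other 8 genes overlapped between the groups. Besides the whole-gene entry, APC has 13 entries. Of these, 3 were listed at 0 in all libraries and 5 averaged 1 FPKM or more in a group. Those for the 2843-residue protein, APC-207 and APC-201, ranged from 1.37 to 5.83 FPKM in OVER43 and from 0.915 to 6.04 in EV. AXIN1-202, the main AXIN1 entry, averaged 15.6 ± 0.299 FPKM in OVER43, against 14.02 ± 0.874 in EV. None of the tested transcripts of APC, AXIN1, BTRC or DVL1 was called.

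The transcripts not yet described that averaged 1 FPKM or more in a group were not called either. BTRC was divided between BTRC-202, BTRC-204, BTRC-201 and BTRC-205, whose means ran from 0.893 to 3.10 FPKM in OVER43, against 0.940 to 2.85 in EV, with overlap in each. CSNK1A1-201 averaged 12.9 ± 0.895 FPKM in OVER43, against 14.2 ± 0.0397 in EV, lower without overlap (limma adjusted p = 0.223). DVL1-203, a retained intron entry that passed the filter through EV alone, read 0.689, 0.489 and 0.577 FPKM in OVER43, against 1.13, 1.06 and 1.79 in EV, also without overlap (limma adjusted p = 0.124). The groups overlapped in the rest, which are APC-203, APC-205 and the unnamed ENST00000457016, AXIN1-201, CSNK1A1-203, CSNK1A1-205, CSNK1A1-207 and CSNK1A1-208, GSK3A-203 and GSK3B-203, and in GSK3A-204, which was below the filter.

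The neighbourhoods of the 9 genes mostly lay near the median of all genes. Over the nearest tested genes, 25 on each side where the chromosome has them, the median log2 fold change was 0.032 around DVL2, 0.035 around GSK3B, 0.061 around DVL3 and -0.014 around GSK3A. Around AXIN1 it was 0.12, close to AXIN1 itself. Around DVL1 it was 0.19, above DVL1 itself. DVL2 (ENSG00000004975) lies on chromosome 17 at 7128660 to 7137864, DVL1 (ENSG00000107404) on chromosome 1 at 1266694 to 1284730 and DVL3 (ENSG00000161202) in a joined locus on chromosome 3 at 183851807 to 184402546 (hg19).

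In the authors' deposited table, where the log2 fold change has EV on top and so the opposite sign, DVL2 had -0.44 (Cuffdiff q = 0.00102) and GSK3B -0.33 (q = 0.0612). The other 7 genes had q values of 0.325 to 0.872 in the authors' deposited table. By that table DVL2 alone of the 9 passed a q of 0.05, as did 21.3% of the 15897 genes with a q.

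Of 51 other genes of this step, 44 passed the filter, 17 were called higher and 8 lower, with a median log2 fold change of 0.070, beside 28.4% higher, 17.5% lower and a median of 0.053 over all tested genes. CTNNB1, which encodes β-catenin, was called higher, averaging 145.6 ± 1.51 FPKM in OVER43, against 127.0 ± 2.17 in EV (SD, n = 3 each), but not under quantile (-0.0055) or equal-sum scaling (0.053). Of the SCF subunit genes SKP1, CUL1 and RBX1 and the receptor FBXW11, 3 of 4 rose and FBXW11 was not called. Of 9 subunits of protein phosphatase 2A, which opposes the kinases, 4 rose and 2 fell. Those that rose include PPP2R5E and PPP2R5C on chromosome 14, where 294 of 431 tested genes were called higher. Of 8 other casein kinase genes 1 rose and 3 fell. The 1 that rose was CSNK2B, read from the highest of its 7 rows, which lies on the contig GL000254.1. How reads were divided among those rows was not tested. With 45.9% of all tested genes called, counts in groups this small are not set apart from the background. CSNK1E, whose symbol cell also names LOC400927-CSNK1E, encodes a kinase that phosphorylates Dishevelled. It fell to 69.8, 71.3 and 73.6 FPKM in OVER43, against 95.8, 101.8 and 96.3 in EV, with no overlap. Its log2 fold change was -0.45 ± 0.039 (SE) with a limma adjusted p of 7.41e-05. Its paralogue CSNK1D averaged 64.0 ± 2.59 FPKM in OVER43, against 61.0 ± 1.84 in EV, and was not called.

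NKD1 and AXIN2, both known as feedback inhibitors of the pathway, had the largest falls among the tested genes of the list. PRICKLE1, below the filter and not tested, read 0.000154, 0.0581 and 0.00103 FPKM in OVER43, against 0.318, 0.251 and 0.360 in EV. The other untested genes of the list, APC2, DACT1, DACT2, DIXDC1, VANGL2 and CXXC4, overlapped between the groups. NKD1, which binds Dishevelled, fell to 1.53, 1.94 and 1.41 FPKM in OVER43, against 3.29, 2.93 and 4.91 in EV, with a log2 fold change of -0.82 ± 0.17 (SE) and a limma adjusted p of 0.00436. AXIN2, the inducible paralogue of AXIN1, read 0.847, 0.610 and 0.519 FPKM in OVER43, against 1.63, 1.60 and 2.19 in EV, with a log2 fold change of -0.76 ± 0.14 (SE) and a limma adjusted p of 0.00299. Its fold change depends on the pseudocount and was -1.34 with 0.1 in place of 1, where that of NKD1 was -1.12. AXIN2 passed the expression filter through the EV libraries alone, where its values are high; with no filter it was called as well (limma adjusted p = 0.024). Neither gene overlapped between groups, and AXIN2 was far below AXIN1 per length in both. VANGL1, a planar polarity gene, and PPP2R5B, a phosphatase subunit gene, averaged 5.86 ± 0.457 and 4.4005 ± 0.254 FPKM in OVER43, against 8.02 ± 0.504 and 5.80 ± 0.419 in EV (SD, n = 3 each), and were also called lower. The NKD1 call ended with no filter on low values (limma adjusted p = 0.056).

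The 3 largest gains among the tested genes of the list lie on chromosome 14. CCDC88C, encoding the Dishevelled-binding protein Daple, rose to 17.0, 18.8 and 17.9 FPKM in OVER43, against 10.2, 9.09 and 10.3 in EV, with a log2 fold change of 0.80 ± 0.068 (SE) and a limma adjusted p of 6.65e-05. PPP2R5E, a regulatory phosphatase subunit gene, and GSKIP, which encodes a GSK3-binding protein, averaged 31.0 ± 1.91 and 18.7 ± 0.259 FPKM in OVER43, against 22.4 ± 1.40 and 13.4 ± 0.932 in EV. On that chromosome 294 of 431 tested genes were called higher, with a median of 0.43. The neighbours of CCDC88C, PPP2R5E and GSKIP had medians of 0.40, 0.38 and 0.52, beside fold changes of 0.80, 0.45 and 0.45 for the genes; the part of the chromosome in these values was not tested. Off chromosome 14, 13 of 39 tested genes of the list were called higher and 8 lower, with a median of 0.047, near the 28.4% and 17.5% of all tested genes. RNF146, whose product ubiquitinates axin marked by tankyrase, was called higher, averaging 9.45 ± 0.202 FPKM in OVER43, against 7.04 ± 0.650 in EV (limma adjusted p = 0.00491). HUWE1, a large ubiquitin ligase gene, averaged 19.98 ± 2.97 FPKM in OVER43, against 14.7 ± 2.56 in EV. Its call (limma adjusted p = 0.0378) ended under the other 3 scalings (0.0529 to 0.155), with no filter (0.236) and in 4 of the 6 fits that leave out a library, all but those without library 2 of either group (0.0911 to 0.118). None of the 9 complex and Dishevelled genes lies on chromosome 14.

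**Figure D5:**
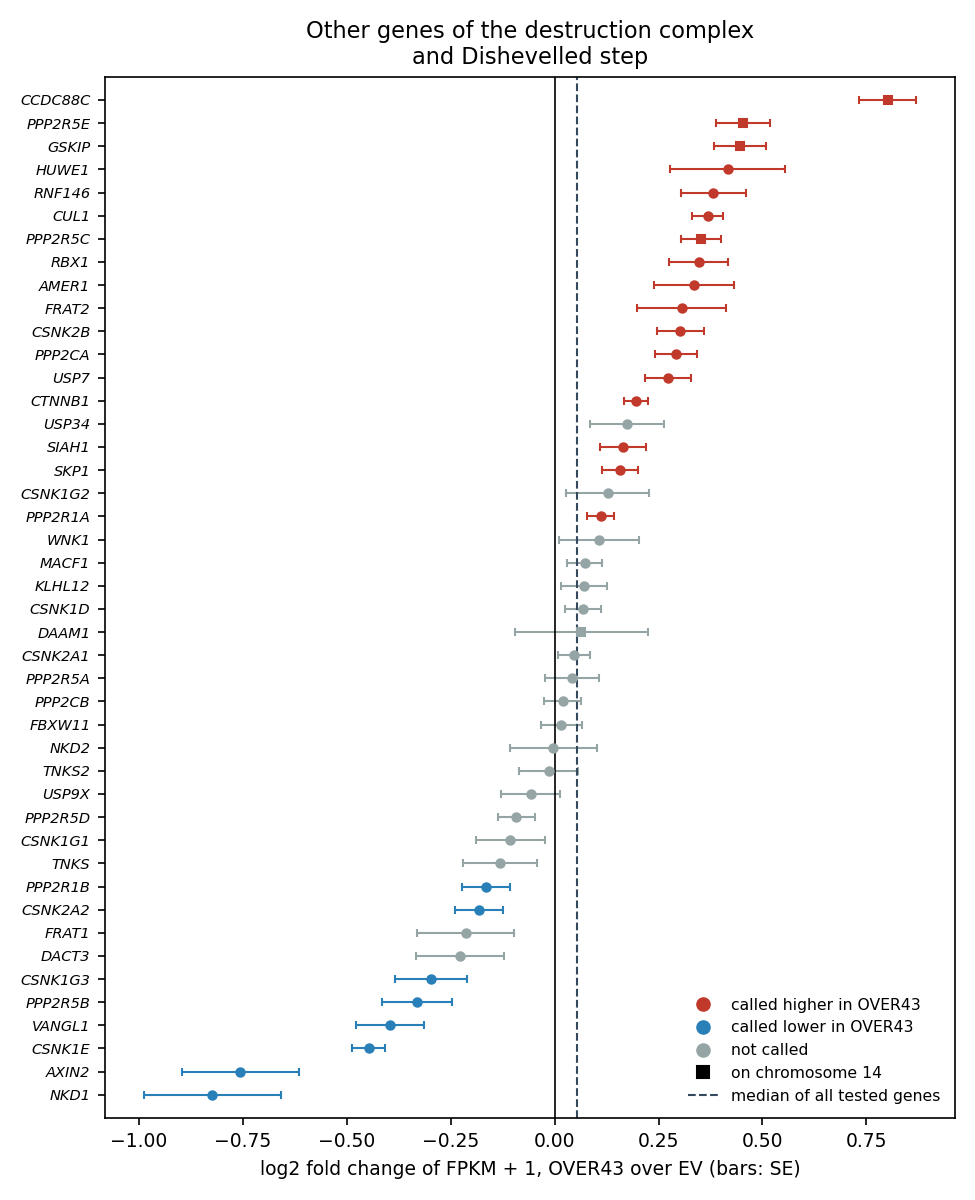
Log2 fold change, OVER43 over EV, of the 44 tested other genes, with bars for the SE; colours mark calls and squares genes on chromosome 14. CCDC88C, PPP2R5E and GSKIP are at the top, and CSNK1E, AXIN2 and NKD1 at the bottom.

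Over the 6 libraries, the genes most like DVL2 in log2(FPKM + 1) were CCNA2 (Pearson r = 0.998), ADNP2 (0.997) and ERP29 (0.996), among 8899 genes with a mean of at least 5 FPKM. Such likeness was common, since 752 of these genes had r of at least 0.95 and the points share 2 groups of 3 libraries.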

How the data were processed

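TruSeq libraries of poly(A) RNA from 3 OVER43 and 3 EV samples were sequenced, per the labels' protocols. The authors deposited Cuffdiff output with FPKM per library, per the file headers, scaled between libraries. The deposited tables also give a log2 fold change, a test statistic (a score), p-values and q-values. The submitters' processing notes name hg38, but only 271 of 52523 shared genes match GENCODE 29 on GRCh38 at a start or end, and the loci are hg19 positions, given here 1-based. Aligner, Cuffdiff version and strand setting: not given in the sources used here.

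Columns numbered 0 to 2 were matched to groups, not to the labels' replicates 1 to 3, and 0 per-library columns went unused. The 9 genes without an estimate and 10 failed ones were left out. Genes, and separately transcripts, with 1 FPKM or more in 3 or more libraries entered limma 3.58.1 (R 4.3.3; trend, robust) on log2(FPKM + 1), two-sided, with Benjamini-Hochberg adjusted p; the script was tested on simulated data. Shares were compared by exact permutation tests (SciPy 1.17.1). Depth came from 134 to 149 low values per library, 73.8% to 76.9% of them within 0.1 of a whole fragment; it covers counting error only. The step of 1 fragment was sought in a preset range, which bounds the depth it can give. Since FPKM were scaled between libraries, it is not a count of sequenced fragments. CSNK2B has 7 rows, of which the highest was used.

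The 9 genes, the list of 51 others and the tests were chosen with earlier results of these data known. Named are the 9 genes; of the others, up to 5 called in each direction by fold change, plus CTNNB1, AXIN2, CSNK1E, CSNK1D and FBXW11; transcripts averaging 1 FPKM or more in a group; and the 3 genes most like the one of the 9 with the largest change. SKP1, CUL1, RBX1, CSNK2B, PPP2R5C, PRICKLE1 and the other untested genes of the list are named outside this rule, after their values were seen. Alternatives were 3 scalings (TMM, coded for this work with trims of 30% and 5%; quantile; equal sums), 2 filters, a pseudocount of 0.1, a replicate block and leaving out each library. Promoters are from RefSeq, which matched 8 of the 9 genes; BTRC was not matched.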

Additional observations from a re-analysis of the deposited data

How the results depend on the processing

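DVL2 and GSK3B were called under each alternative run at the gene level. The 9 genes gave 4 calls, 2 with no filter on low values and 2 to 4 without 1 library, the lowest without EV library 1. The other genes of the list gave 25, 16 with no filter and 18 to 21 without 1 library; their split into higher and lower was 10 and 10 under quantile scaling and 8 and 10 with equal sums. Over all genes 5600 were called and 4737 to 5087 without 1 library. Transcripts of the 9 genes gave 7 calls, 1 with no filter and 2 to 4 without 1 library. Where a library is left out, fewer samples enter the fit; with no filter, more genes do. The differences in the DVL2 and GSK3B shares ranged from 4.45 to 6.19 and from 1.96 to 3.25 percentage points without 1 library.

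The sign turned, with no call after it, under quantile and equal-sum scaling for CSNK1A1 (-0.10 and -0.051) and CSNK1D (-0.081 and -0.073), under equal sums for BTRC (-0.015) and under quantile scaling for CTNNB1 (-0.0055). FBXW11 turned under TMM (-0.013), quantile (-0.082) and equal-sum scaling (-0.12). Without 1 library the range spanned 0 for FBXW11 (-0.0058 to 0.052), DVL1-201 (-0.060 to 0.0024), DVL1-202 (-0.022 to 0.059) and DVL3-201 (-0.010 to 0.049). The cause was not tested.

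Same-numbered columns did not deviate together (correlations of 0.017, -0.091 and 0.029). Libraries can be paired without a shared deviation, so whether the numbers pair them is not known. With the replicate block, limma called 4 of the 9 genes, 20 of the others and 0 transcripts (8 at an unadjusted p under 0.05), and the HUWE1 call ended (0.083). Depth limits BTRC most, with about 1382 fragments in its shallowest library.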
